A study of Mus musculus with 16 samples.

Results

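The cytosolic ribosomal protein genes were taken as every non-control probe whose gene name in the scanner files is Rpl or Rps followed by a number with an optional paralogue letter, or is Rpsa, Rplp0, Rplp1 or Rplp2. The Rps6k kinases were left out. This gave 143 of 41174 probes and 83 of 27976 genes, of which 51 encode proteins of the large and 32 of the small ribosomal subunit. Of the 83 genes, 81 had a probe bright enough to be tested (49 large, 32 small). The remaining pair, Rpl3l and Rpl39l, had no probe well above background in any of the 24 dye channels. Rpl3l is known as a muscle form and Rpl39l as a testis form of their parent proteins. No probe carried the name Rpl10l.

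Each ribosome is built from a large and a small subunit, in which ribosomal RNA carries out decoding and peptide bond formation and the ribosomal proteins fold, stabilise and regulate it. In vertebrates the messenger RNAs of these proteins begin with a C followed by a run of pyrimidines, the terminal oligopyrimidine tract, through which their translation is held under control of the growth kinase mTOR. Hepatocytes make much of the plasma protein and keep large ribosome pools, and ribosomes are among the cargoes that autophagy delivers to the lysosome.

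Liver RNA was compared on 2-colour Agilent arrays in 8 experiments, each hybridised again with the dyes exchanged, and the 2 arrays of an experiment were averaged to 1 replicate. Nrf2 is a transcription factor for genes of the oxidative stress response, and Atg7 is an enzyme needed to form autophagosomes. Experiments 1 and 4 set Nrf2-/- mice (Nrf2 KO) against wild type (WT). Experiments 2 and 5 set Atg7F/F:Mx1-Cre mice (Atg7 cKO) against WT. Experiments 3 and 6 set Atg7F/F:Mx1-Cre:Nrf2-/- mice (double knockout, DKO) against WT. Experiments 7 and 8 set DKO directly against Atg7 cKO, and for these only the authors' table of ratios was used. The design text has Cre-carrying mice and controls injected at 8 weeks of age with pIpC, an RNA mimic that switches on the Mx1 promoter, and livers taken 4 weeks later, so an interferon-inducing treatment is common to these groups. The Mx1 promoter also acts in cell types other than hepatocytes. Neither the number of animals behind an RNA nor the sharing of a WT RNA between experiments is stated, and p-values therefore measure only the spread between experiments.

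Median spot intensities before background subtraction in experiments 1 to 6 lay between 41.82 and 55.63 per channel, with 43.42% to 57.19% of spots well above background, and no ribosomal protein gene was saturated. The brightest Nfe2l2 probe (the gene of Nrf2) had log2 ratios of -3.78 and -3.97 in Nrf2 KO over WT and -3.31 and -4.10 in DKO over WT. Another Nfe2l2 probe had -3.04 and -3.05, then -2.82 and -3.25, and a further one stayed between -0.09 and 0.17. The brighter Atg7 probe had -0.79 and -0.82 in Atg7 cKO over WT and -0.73 in both DKO experiments, while the other Atg7 probe stayed between -0.16 and 0.01 in these 4 experiments. In DKO over Atg7 cKO (experiments 7 and 8) the brightest Nfe2l2 probe had -6.31 and -6.68. The other Nfe2l2 probes had -4.17 and -4.27, and 0.01 and 0.36. There the brighter Atg7 probe had -0.03 and 1.03 and the other 0.82 and 0.21, so the Atg7 ratio differed between these repeats. All 13 hepatocyte markers of the list that were found by name on the array had a kept probe, as the liver label requires. The WT channels of experiments 1 to 3 carried Ddx3y and Eif2s3y signal and no Xist above background, and those of experiments 4 to 6 the reverse. By these transcripts the WT mice of experiments 1 to 3 and 4 to 6 differ in sex. The knockout channels were not examined for them.

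Ribosomal protein transcripts were among the brightest on the array, with a median log2 signal of 12.46, against 7.03 over all genes tested. All 81 tested genes were well above background in all 24 channels of experiments 1 to 6. Below, every value is a log2 ratio of the first-named genotype over the second, and a gene is said to rise or fall where limma's adjusted p over all genes was under 0.05.

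Start-site windows are shown for genes on which the comparisons turn: the genes with the largest rises in Atg7 cKO, 1 that rose in DKO and did not pass in Atg7 cKO, and 1 that was lower in DKO than in Atg7 cKO. Each runs 5′ to 3′ from 15 bases before the annotated start to 15 bases from it on, with runs of a C followed by at least 4 pyrimidines in capitals, from RefSeq on GRCm38.p6. The coordinates are chr10:23787195-23787224 (minus strand) for Rps12, chr12:28635939-28635968 (minus) for Rps7, chr7:24884577-24884606 (plus) for Rps19, chr3:90213634-90213663 (minus) for Rps27 and chr17:24720048-24720077 (plus) for Rps2.
Rps12: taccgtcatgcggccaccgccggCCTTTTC
Rps7: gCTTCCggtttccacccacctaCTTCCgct
Rps19: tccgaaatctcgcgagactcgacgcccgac
Rps27: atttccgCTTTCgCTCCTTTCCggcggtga
Rps2: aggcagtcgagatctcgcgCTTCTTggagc
Of the 83 genes, 63 had an entry in the RefSeq start-site table. A C followed by 4 pyrimidines stood exactly at an annotated start in 13 of them (20.6%), against 813 of 27025 genes with an entry (3.01%). Anywhere in the 30-base window it stood on the gene's strand in 41 of 63 ribosomal protein genes (65.1%), against 40.3% of all genes, and on the opposite strand in 18 of 63 (28.6%), against 44.6% of all genes. Such a window was found in 19 of 26 genes that rose in Atg7 cKO (73.1%) and in 20 of 35 of the others (57.1%). For DKO it was found in 21 of 29 genes that rose (72.4%) and in 18 of 32 of the others (56.2%). Whether the run goes with a rise was not tested. A match is a description of the annotated sequence, and Rps19, which rose in both genotypes, shows none in the window of the first of its annotated starts.

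In Atg7 cKO livers a broad part of the ribosomal protein genes stood above WT and none fell. Of 81 genes, 34 rose and 0 fell (42%), where 39.7% of the 16378 genes tested passed in either direction, 23.4% upward and 16.3% downward. Of the ratios, 74 of 81 were above 0 (91.4%), against 50.7% over all genes. The median log2 ratio was 0.313 (interquartile range 0.209 to 0.470), against 0.004 over all genes (-0.154 to 0.218), and single genes ran from -0.34 to 0.86. The repeat experiments differed in size, with a median of 0.143 in experiment 2 and 0.498 in experiment 5, and 79 of 81 genes were higher in experiment 5. How far the members' share of rises lay from that of all genes changed with the fit. With slide as a block 53 of 81 rose (65.4%, against 20.8% of all genes), and with the set of experiments (1 to 3, 4 to 6) as a block 61 rose (75.3%, against 26.8%). Without experiment 5, 6 rose (7.41%, against 12.4% of all genes), and without experiment 2, 52 rose (64.2%, against 18%). Leaving out either Nrf2 KO experiment gave 19 rises (23.5%, against 18.7%), and leaving out either DKO experiment 21 (25.9%, against 21.5%), since these experiments also set the spread. Rpl21 fell with the set as a block and without a Nrf2 KO experiment. In bulk liver RNA, a change in the share of cells of a type and a change in RNA per cell cannot be told apart.

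**Figure D1:**
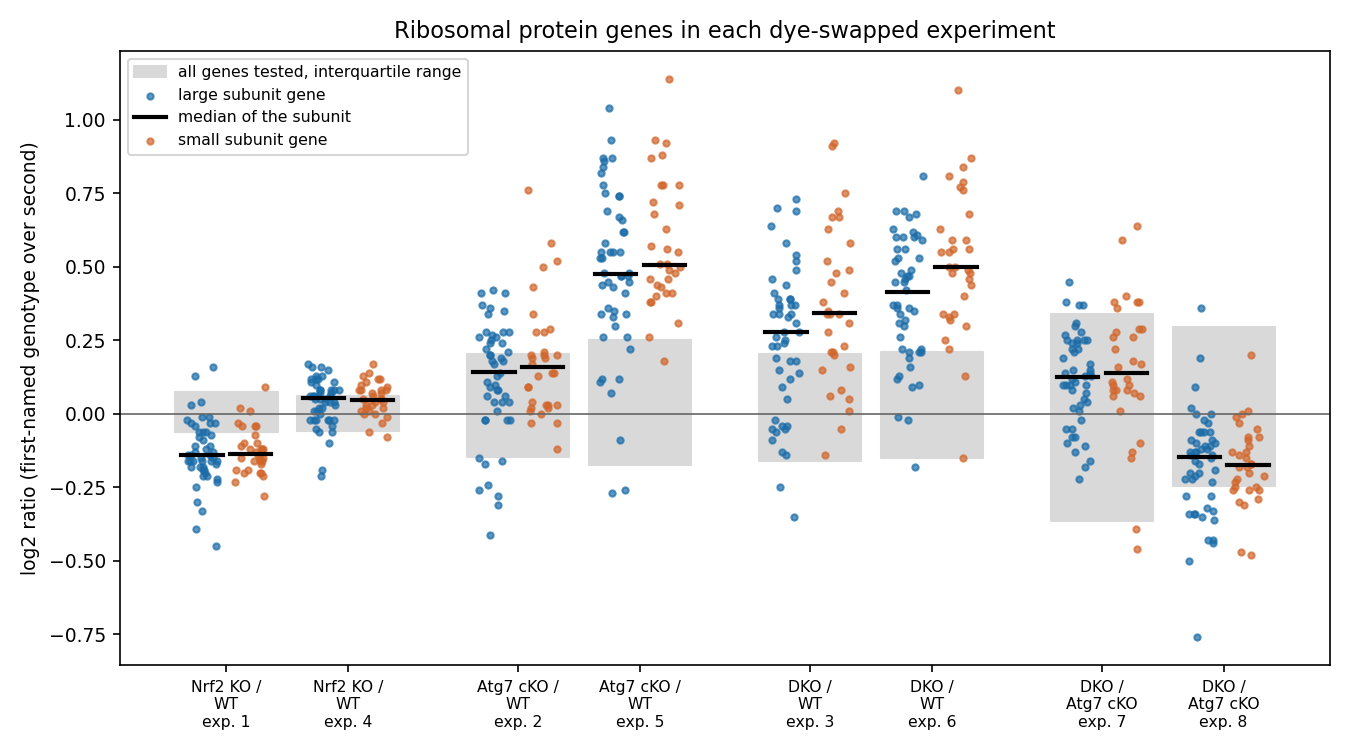
Each point is 1 of the 81 tested ribosomal protein genes, with its log2 ratio on the vertical axis and the 8 dye-swapped experiments grouped by comparison along the horizontal axis. Large subunit genes are blue, small subunit genes orange, black bars are subunit medians and grey boxes span the interquartile range of all genes tested; the medians over all members are 0.143 and 0.498 for Atg7 cKO over WT, 0.314 and 0.466 for DKO over WT, -0.140 and 0.049 for Nrf2 KO over WT, and 0.125 and -0.157 for DKO over Atg7 cKO.

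Of the 6 largest rises in Atg7 cKO, 4 were in small subunit genes. Rps12 had log2 ratios of 0.58 and 1.14 in experiments 2 and 5 (mean 0.86 ± 0.39, SD, n = 2; limma adjusted p = 0.00759). Rps7 had 0.76 and 0.93 (0.84 ± 0.12; adjusted p = 0.00304). Both genes stood above WT in each experiment, and Rps7 was the member with the highest ratio in experiment 2. Rps19, mutated in human Diamond-Blackfan anaemia, had 0.52 and 0.92 (limma adjusted p = 0.00802). Rps20, a small subunit protein, had 0.50 and 0.88 (limma adjusted p = 0.0103). Both pairs of values lay above 0, with the experiment 5 value the higher. Rpl12, which sits at the base of the large subunit stalk, had 0.34 and 1.04 (limma adjusted p = 0.0389), and Rpl32 of the large subunit had 0.41 and 0.93 (0.0163). The 2 Rpl12 values lay further apart than those of the other genes named here.

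In DKO livers the picture was similar in direction. Of 81 genes, 40 rose and 0 fell (49.4%), where 37.4% of 16379 genes passed, 21.4% upward and 16.0% downward. The median was 0.375 (interquartile range 0.190 to 0.526), against 0.005 over all genes, the range was -0.26 to 1.0, and 76 of 81 ratios were above 0 (93.8%, against 51.1% of all genes). The experiment medians were 0.314 and 0.466. Without experiment 3, 6 genes rose (7.41%, against 11.2% of all genes), and without experiment 6, 5 rose (6.17%, against 12%). Without either Nrf2 KO experiment 26 rose (32.1%, against 17.2%), and without either Atg7 cKO experiment 51 rose (63%, against 21.7%). With slide as a block 44 rose (54.3%, against 18.5%), and with the set as a block 58 rose (71.6%, against 24.9%) and Rpl21 fell. Across the 81 genes, the ratios of experiments 3 and 6 had a Pearson correlation of 0.92 and those of experiments 2 and 5 one of 0.79, where the points of a pair share an array design and their probes.

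Rps12 again had the highest ratio, 0.91 and 1.1 in experiments 3 and 6 (mean 1.0 ± 0.13, SD, n = 2; limma adjusted p = 0.00493). Rps20 had 0.92 and 0.87 (limma adjusted p = 0.00477), and Rpl19, a large subunit protein, had 0.73 and 0.81 (0.00411). These values differed little between experiments. Rps23, a protein of the decoding centre, had 0.69 and 0.84 (limma adjusted p = 0.00862), and Rps15a of the small subunit had 0.75 and 0.76 (0.00496). Rps27, which carries a zinc finger, had 0.67 and 0.77 (0.72 ± 0.07; limma adjusted p = 0.00701) in DKO over WT, beside 0.04 and 0.43 (0.23 ± 0.28; adjusted p = 0.153) in Atg7 cKO over WT. For Rps27 the DKO values lay above both Atg7 cKO values, and the directly compared ratios of 0.64 and 0.20 had an adjusted p of 0.107 in limma.

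**Figure D2:**
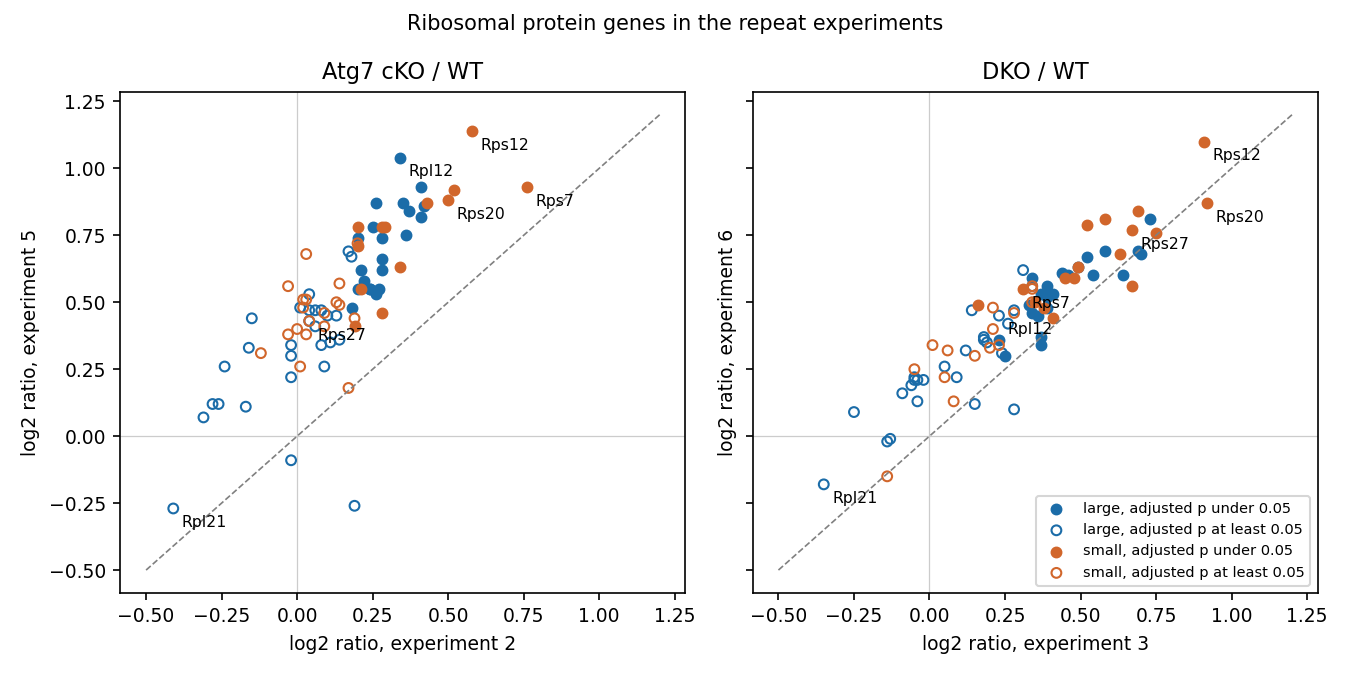
Each point is 1 of the 81 ribosomal protein genes, with its log2 ratio in the earlier-numbered experiment on the horizontal and in the later-numbered one on the vertical axis, for Atg7 cKO over WT (left) and DKO over WT (right). Filled points had a limma adjusted p under 0.05, large subunit genes are blue and small ones orange, and the dashed line marks equal ratios; most Atg7 cKO points lie above that line (79 of 81), and Rpl21 is lowest on both horizontal axes.

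In Nrf2 KO livers no ribosomal protein gene passed the test. The count was 0 of 81 by limma and also 0 at an unadjusted p under 0.05, where 0.0122% of 16378 genes passed after adjustment and 606 at an unadjusted p. The median was -0.039, against 0.004 over all genes, with a range of -0.30 to 0.11. The experiments stood on opposite sides of 0, with a median of -0.140 and 7 of 81 genes above 0 in experiment 1, and 0.049 and 61 of 81 in experiment 4. In all 3 comparisons with WT the median was higher in the experiment numbered 4 to 6 than in that numbered 1 to 3. The part of sex, slide or animal in that step was not tested.

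Set directly against Atg7 cKO, DKO livers had 2 lower and 0 higher ribosomal protein genes of 81 (2.47%), where 14.8% of 16379 genes passed, 6.73% higher and 8.09% lower. Rps7 had log2 ratios of -0.46 and -0.48 (mean -0.47 ± 0.01, SD, n = 2; limma adjusted p = 0.0373). Rps2, which lies near the entry of the messenger RNA channel, had -0.39 and -0.47 (-0.43 ± 0.06; 0.0378). Both were below 0 in each experiment, and for Rps2 a second RefSeq probe gave -0.40 (adjusted p = 0.0573 when every probe was tested). Against WT, Rps7 stood at 0.43 in DKO (0.31 and 0.55) and at 0.84 in Atg7 cKO, and Rps2 at -0.14 in DKO (-0.14 and -0.15) and 0.18 in Atg7 cKO (0.17 and 0.18). Neither was called with any 1 of the 8 experiments left out, with experiments 7 and 8 alone, or by the route through WT, where 0 of 81 passed and 4.96% of all genes did (1.75% higher, 3.21% lower).

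Over all 81 genes, the repeats of the direct comparison stood on opposite sides of 0. The median was 0.125 in experiment 7, with 65 of 81 genes above 0, and -0.157 in experiment 8, with 7 of 81 above 0; the mean over both had a median of -0.018, against 0.007 over all genes. Rpl12 had -0.22 and -0.76 (mean -0.49; adjusted p = 0.160), the lowest mean of the 81. The difference from additive effects, DKO minus Atg7 cKO minus Nrf2 KO over WT, passed in 0 of 81 genes by limma (1 at an unadjusted p under 0.05), where 0.721% of 16377 genes passed, with a median of 0.085.

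**Figure D3:**
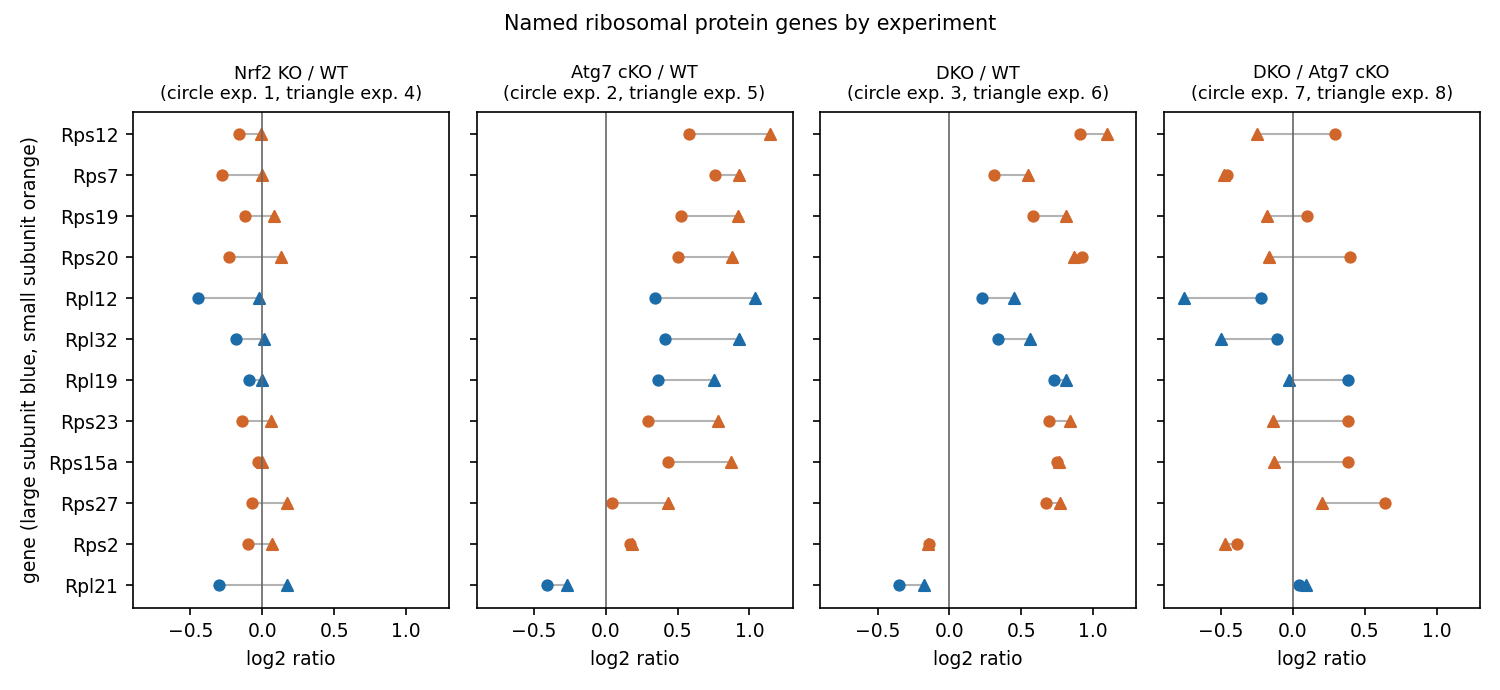
Log2 ratios (horizontal axes) of 12 named ribosomal protein genes (vertical axis) in the 4 comparisons, with a circle for the earlier-numbered and a triangle for the later-numbered experiment. Rps12 reaches 1.14 and 1.1 in Atg7 cKO and DKO over WT, Rps7 and Rps2 are the pair below 0 in both experiments of DKO over Atg7 cKO that passed the test, and Rpl21 is below 0 in the 4 experiments of Atg7 cKO and DKO over WT.

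Both subunits had a median above 0 in Atg7 cKO and in DKO. In Atg7 cKO over WT, 21 of 49 large subunit genes (42.9%, median 0.285) and 13 of 32 small subunit genes (40.6%, median 0.314) rose. Over all genes 23.4% rose there (median 0.004). The 32 small subunit ratios were all above 0, and 42 of 49 large subunit ratios were. In DKO over WT, 23 of 49 large (46.9%, median 0.339) and 17 of 32 small subunit genes (53.1%, median 0.427) rose. Over all genes 21.4% rose in DKO (median 0.005). Taken per experiment, the large subunit median minus the small subunit median was -0.015 and -0.030 in Atg7 cKO, -0.066 and -0.082 in DKO, -0.006 and 0.005 in Nrf2 KO, and -0.015 and 0.030 in the direct comparison. The small subunit median was the higher in all 4 experiments of Atg7 cKO and DKO over WT, and no test was made over genes.

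Members with roles of their own are given next, in Atg7 cKO and DKO over WT. The acidic stalk proteins recruit elongation factors to the large subunit: Rplp2 rose in both (0.41 and 0.82 in Atg7 cKO, 0.70 and 0.68 in DKO), as did Rplp1 (0.22 and 0.58, then 0.37 and 0.37). The stalk anchor Rplp0 rose in Atg7 cKO (0.28 and 0.66; limma adjusted p = 0.0312) and had 0.09 and 0.22 in DKO (0.353). The older name Arbp, whose probe is on the Rplp0 transcript, falls outside the naming rule; it had 0.28 and 0.88 in Atg7 cKO (limma adjusted p = 0.0377) and 0.42 and 0.59 in DKO (0.0578). Both names thus carried positive values in all 4 experiments.

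Rpl5 and Rpl11 bind the smallest ribosomal RNA of the large subunit and, when free, the p53 regulator Mdm2. Rpl5 rose in both genotypes (0.20 and 0.55 in Atg7 cKO, 0.54 and 0.60 in DKO; limma adjusted p = 0.0343 and 0.00965). Rpl11 had 0.10 and 0.45 in Atg7 cKO and 0.18 and 0.36 in DKO (adjusted p = 0.0773 and 0.0820 by limma). All 8 values were above 0, and Rpl11 did not pass. Rps27l, a p53-induced relative of Rps27, rose in both (0.28 and 0.46 in Atg7 cKO, 0.16 and 0.49 in DKO), and Rpl13a, known from an interferon-gamma translation control in human monocytes, rose as well (0.21 and 0.62, then 0.34 and 0.59).

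Rps6, the substrate of the S6 kinases, did not pass: -0.03 and 0.38 in Atg7 cKO and 0.01 and 0.34 in DKO. Rpsa, also called the laminin receptor, had 0.01 and 0.26 in Atg7 cKO and 0.08 and 0.13 in DKO. Neither mean passed the test. Rps14, deleted in human 5q syndrome, rose in DKO (0.49 and 0.63; limma adjusted p = 0.0190) and had 0.03 and 0.51 in Atg7 cKO (0.134). Rps4x, on the X chromosome, had 0.02 and 0.51 in Atg7 cKO and 0.34 and 0.50 in DKO (limma adjusted p = 0.0615 for DKO). Rpl39, which lines the exit tunnel, rose in both (0.37 and 0.84, then 0.52 and 0.67).

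At the other end, Rpl21 had the lowest ratios: -0.41 and -0.27 in Atg7 cKO (limma adjusted p = 0.0771) and -0.35 and -0.18 in DKO (0.146). All 4 were below 0 and neither mean passed. This probe, the brightest of the gene (10.54), is on a transcript outside the RefSeq mRNA set; the dimmer RefSeq probe (6.26) had 0.06 and 0.01 in Atg7 cKO and -0.11 and -0.01 in DKO. Rpl3, near the peptidyl transferase centre, had -0.24 and 0.26 in Atg7 cKO and -0.04 and 0.21 in DKO. Rpl10, which completes the large subunit late in its assembly, had -0.28 and 0.12, then -0.04 and 0.13. Rpl36al had -0.26 and 0.12, then -0.13 and -0.01, and Rpl7l1 0.19 and -0.26, then 0.28 and 0.10. None of these 4 genes passed in either comparison. A second, dimmer RefSeq probe of Rpl7l1 had -0.15 and -0.15 in Atg7 cKO and -0.21 and -0.17 in DKO, where it was called lower when every kept probe was tested (-0.19 ± 0.05 SE; limma adjusted p = 0.0359).

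Set against the median of the 81 genes in the same experiment, several genes held similar places in the repeats. Rps12 stood 0.44 and 0.64 above it in Atg7 cKO and 0.60 and 0.63 above it in DKO. Rpl21 stood at -0.55 and -0.77, then -0.66 and -0.65. Rpl12 stood above it in Atg7 cKO (0.20 and 0.54) and slightly below it in DKO (-0.08 and -0.02), while Rps27 stood below it in Atg7 cKO (-0.10 and -0.07) and above it in DKO (0.36 and 0.30). Brighter genes had higher ratios on average, with a Spearman correlation between mean log2 signal and ratio across the 81 genes of 0.38 in Atg7 cKO, 0.52 in DKO and 0.08 in Nrf2 KO, given as a description over genes that share arrays. In each of the 8 experiments the median over members was higher on the array with the knockout (in experiments 7 and 8, the DKO) in Cy5 than on its dye swap, for instance 0.670 and 0.350 in experiment 5, and averaging the swap takes this dye difference out.

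Of the 81 genes, 40 had several kept probes. Rpl22, an RNA-binding protein of the large subunit, had a pair of RefSeq-annotated probes that went in opposite directions, and the first 30 of their 60 bases are printed to tell them apart. On mm9, the build of the scanner files, both lie on the plus strand of chromosome 4, the brighter at chr4:151704158-151704217 and the dimmer at chr4:151708012-151708071.
Rpl22 brighter probe: aacctcggcggaggagtcgtgaccatcgaa
Rpl22 dimmer probe: gctgtaaacaacattaaccctgggttgatt
The brighter probe (mean log2 signal 11.52) had 0.04 and 0.53 in Atg7 cKO and 0.41 and 0.53 in DKO. The dimmer probe (8.78) had -0.85 and -0.88 in Atg7 cKO and -0.79 and -0.30 in DKO. With every kept probe tested, the brighter one was called higher in DKO (0.47 ± 0.13 SE; limma adjusted p = 0.0478) and the dimmer one lower (-0.54 ± 0.16; 0.0469), and in Atg7 cKO the dimmer one was called lower (-0.86 ± 0.16; 0.0111) beside 0.28 ± 0.13 (0.153) for the brighter. The direction of Rpl22 thus depends on the probe. Its paralogue Rpl22l1 had -0.15 and 0.44 in Atg7 cKO and 0.18 and 0.37 in DKO and did not pass.

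For several other genes a dim probe on a transcript outside the RefSeq mRNA set stood near 0 or below it. The second Rps12 probe, at a mean log2 signal of 6.03, had 0.12 in Atg7 cKO and 0.10 in DKO, beside 0.86 and 1.0 for the bright probe. The dim Rps4x probe (6.62) was called lower in both (-0.27 each; limma adjusted p = 0.00952 in Atg7 cKO and 0.0102 in DKO). One Rps28 probe (6.68) was called lower in Atg7 cKO (-0.24; 0.0499), beside 0.16 to 0.20 for the other 3. With every kept probe tested, 46 of 133 ribosomal protein probes were called higher in Atg7 cKO (34.6%, against 21.9% of all probes) and 3 lower, those of Rpl22, Rps4x and Rps28. In DKO 49 were called higher (36.8%, against 19.3%) and 3 lower, those of Rpl22, Rps4x and Rpl7l1. Ribosomal protein genes have many processed pseudogenes, and how far probes read their transcripts was not tested. This limit bears on named genes. The scanner files place the Rpl12 probe on chromosome 10. The Rpl10 probe used is placed on chromosome 8, and the RefSeq Rpl10 probe on chromosome X.

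**Figure D4:**
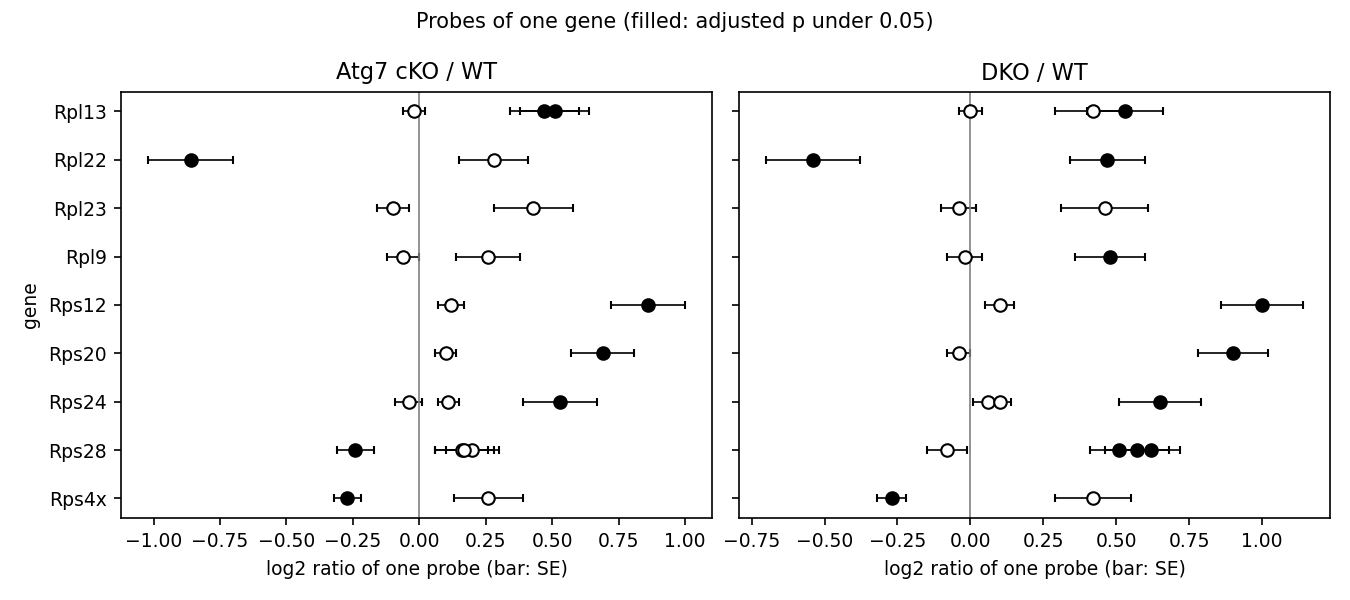
Log2 ratio of each kept probe (horizontal axis, bar 1 SE of the limma fit) for the genes on the vertical axis, whose probes span at least 0.5 in either comparison, in Atg7 cKO over WT (left) and DKO over WT (right). Filled points had an adjusted p under 0.05; Rpl22 has a probe at -0.86 beside one at 0.28 in Atg7 cKO, and one at -0.54 beside one at 0.47 in DKO.

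Of 3 ribosomal protein gene names outside the rule, 1 rose in Atg7 cKO (23.4% of all genes rose there) and 2 in DKO (21.4%), and 0 fell. The rise in Atg7 cKO was that of Arbp, whose probe is on the transcript of the member Rplp0, so it adds no further gene. Rack1, a scaffold on the head of the small subunit, rose in DKO (0.47 and 0.63; limma adjusted p = 0.0366), and Fau, made as a fusion with a ubiquitin-like protein, rose in DKO (0.30 and 0.27; 0.0398).

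Of 20 translation factors and other genes whose mRNAs are known to carry the pyrimidine tract, 9 rose and 1 fell in Atg7 cKO, and 6 rose and 0 fell in DKO. The background for these and the following lists was 23.4% up and 16.3% down in Atg7 cKO and 21.4% up and 16.0% down in DKO over all genes, and 6.73% were higher and 8.09% lower in DKO over Atg7 cKO. Pabpc1, the poly(A)-binding protein, had 0.52 and 1.04 in Atg7 cKO and 1.40 and 1.29 in DKO (limma adjusted p = 0.0079 and 0.00178). The non-coding host RNA Gas5 fell in Atg7 cKO (-0.50 and -0.86; 0.0272), opposite to the other called genes, and was higher in DKO than in Atg7 cKO (0.69 and 1.36; limma adjusted p = 0.0365). The list median was 0.14 in Atg7 cKO and 0.15 in DKO.

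Of 56 genes of ribosome production tested, Myc included, 25 rose and 3 fell in Atg7 cKO (median 0.16). In DKO 12 rose and 2 fell (median 0.06), and in DKO over Atg7 cKO 1 was higher and 9 lower (median -0.16). Myc, a transcription factor for ribosome production, had 0.61 and 0.60 in DKO over WT and 1.12 and 1.55 in Atg7 cKO over WT. Directly compared, Myc was lower in DKO than in Atg7 cKO (-0.76 and -1.53; limma adjusted p = 0.0337). Nhp2, a protein of the pseudouridylation particles, rose in Atg7 cKO (0.85 and 1.03, limma adjusted p = 0.00091) and was lower in DKO than in Atg7 cKO (-0.76 and -0.95, 0.00685). Emg1 went the other way. It fell in Atg7 cKO (-0.70 and -0.77, limma adjusted p = 0.00164) and was higher in DKO than in Atg7 cKO (0.61 and 0.55, 0.0163). Rrp1b fell in Atg7 cKO (-1.65 and -0.49, limma adjusted p = 0.037).

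Mitochondrial ribosomal protein genes, which encode the separate ribosome of that organelle, gave 15 rises and 15 falls of 75 in Atg7 cKO (median -0.03) and 4 rises and 27 falls in DKO (median -0.15). In the direct comparison 0 were higher and 6 lower. With a background of 23.4% up and 16.3% down in Atg7 cKO, the shares of this list there lay near it. In DKO, with 21.4% up and 16.0% down over all genes, its share of rises lay below the background and its share of falls above it. Among 23 genes of mTOR control, 5 rose and 3 fell in Atg7 cKO, and 3 rose and 6 fell in DKO, where the background was 21.4% up and 16.0% down. Sesn2, an inhibitor of mTOR signalling, had 1.07 and 0.91 in Atg7 cKO and 1.70 and 1.25 in DKO. Deptor, on the same list, fell in both (-1.04 and -1.07, then -1.33 and -1.02). Its limma adjusted p was 0.00122 in Atg7 cKO and 0.000925 in DKO. Eif4ebp2 also fell in both (-0.54 and -0.65, then -0.28 and -0.56). Eif4ebp1, the translation repressor that mTOR phosphorylates, rose in Atg7 cKO (1.03 and 1.56; limma adjusted p = 0.00232) and was lower in DKO than in Atg7 cKO (-0.89 and -1.34; 0.0131). Of 9 genes for ribosome rescue and turnover, 2 rose and 1 fell in Atg7 cKO, and 3 rose and 2 fell in DKO. Hbs1l, which frees stalled ribosomes, fell in both (-0.74 and -0.96, then -0.64 and -0.76).

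Markers of several cell types and of division moved in the same livers. Of 18 macrophage markers, 16 rose and 1 fell in Atg7 cKO, and 17 rose and 1 fell in DKO; their summed signal was 41901 and 71909 in Atg7 cKO, against 12134 and 15291 in the WT of those experiments, and 57452 and 89170 in DKO, against 8016 and 16282 in WT. Of 13 hepatocyte markers, 0 rose and 11 fell in Atg7 cKO, with sums of 60395 and 69798, against 168558 and 180314 in WT; in DKO 1 rose and 10 fell, with sums of 60142 and 120580, against 105788 and 158461 in WT. Of 19 proliferation genes, 17 rose and 1 fell in Atg7 cKO (sums 7644 and 13181, against 3253 and 3653 in WT) and 16 rose and 1 fell in DKO (5271 and 7085, against 2639 and 3329 in WT). Lymphocyte markers gave 5 rises of 13 in Atg7 cKO and 7 in DKO, with Cd79a not above background. Stellate cell markers gave 7 rises of 10 in each genotype. Neutrophil markers gave 2 rises of 6 in Atg7 cKO and 4 in DKO, and cholangiocyte markers 3 of 7 in each. Endothelial markers gave 2 rises and 0 falls of 10 in Atg7 cKO, and 1 rise and 3 falls in DKO. Of 3 erythroid markers tested, 0 rose and 0 fell in either genotype. The part of these cell types and of dividing cells in the ribosomal protein ratios was not tested.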

How the data were processed

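The authors' scanner files hold spot intensity per channel, local background intensity, outlier and above-background flags, and a log10 ratio of Cy5 over Cy3, per the file headers; Agilent Feature Extraction 9.5.1 is named in the submitters' processing notes. The deposited value table holds the same log10 ratio for all 16 arrays: on the 12 arrays with scanner files it differed by at most 0.005. Slides held experiments 1 and 2, 3 and 4, and 5 and 6, per the file headers.

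Here, intensities were corrected with normexp (offset 50) and loess in limma 3.58.1 (R 4.3.3). Control and outlier spots were left out. Dye swaps were averaged, and probes well above background in at least 4 of 24 channels of experiments 1 to 6 were kept, with the brightest per gene. Experiments 1 to 6 were fitted as 3 group means (3 residual degrees of freedom). The direct comparison came from the value table over 8 experiments, as 4 group means. Tests were limma's moderated test with Benjamini-Hochberg adjustment over all genes. The scripts were tested on simulated data.

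The text names the 6 largest rises and falls per comparison among called members with the same sign in both experiments. It also names members with distinct roles, members whose probes oppose each other, and up to 3 called genes each way from other lists. Rpl21 and the other Nfe2l2 probes, outside this rule, were chosen after their values were seen. So were the second probes of Atg7, Rpl21, Rps2, Rps12, Rps4x, Rps28 and Rpl7l1. Members and lists were chosen with earlier results of these data known. Arrays give no read depth; their number limits precision. One further gene is not reported here.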

Additional observations from a re-analysis of the deposited data

How the results depend on the processing

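No fall among ribosomal protein genes was called in Atg7 cKO or DKO over WT under the processed signals, median centring, either filter or the slide block, and the median stayed above 0 in both under all alternatives run. In Atg7 cKO the count of 34 became 76 with median centring (median 0.709, with the median of all genes at 0.214, and 42.1% of them called higher), 53 with slide as a block and 62 with the set of experiments as a block, and lay between 6 and 52 with an experiment left out. In DKO the count of 40 lay between 5 and 51 with an experiment left out, and the median of 0.375 became 0.491 with the processed signals and 0.498 with median centring (median of all genes 0.142). In Nrf2 KO, where 0 were called throughout, the median became 0.097 with median centring. For DKO over Atg7 cKO the 2 calls became 0 with any experiment left out (0 to 0), with experiments 7 and 8 alone and through WT. The median of the difference from additive effects became -0.309 with median centring and -0.119 with slide as a block, and ranged from -0.121 to 0.280 with an experiment left out, with 0 calls. Large minus small subunit, with the processed signals, was -0.009 for Nrf2 KO over WT, -0.036 for Atg7 cKO over WT and -0.104 for DKO over WT. With every kept probe it was -0.009, -0.006 and -0.045, and in DKO it was -0.056 with median centring and -0.104 without a filter on dim probes. With an experiment left out it lay at -0.006 to 0.005, -0.030 to -0.015, -0.082 to -0.066 and -0.015 to 0.030 in the 4 comparisons. Leaving out experiments reduces the replicates, and the cause of the other shifts was not tested. The labels number the experiments from 1 to 8, so no replicate number pairs them across comparisons. The block over sets of experiments is the nearest to a paired fit. These sets are also those that differ in the sex-linked transcripts of the WT channels. In the main fit, which has no block, any difference between the sets is counted in the spread and in the SD between repeats. Over the genes named, 1164 values under an alternative kept direction and side of the threshold, 91 lost the call, 47 gained it and 90 moved without a call. Slide and group are only partly crossed, 2 experiments a comparison limit all tests, and experiments 7 and 8 lack background and outlier flags here.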
